A study of Mus musculus with 6 samples.

Results

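The WNT genes described here are 49 named ligands, receptors, secreted inhibitors, R-spondin axis genes and target or nuclear factor genes, chosen by name and class, with earlier results of these data known. They were found as the probe sets to which the platform annotation gives exactly 1 gene symbol among these names. This gave 109 of the 45037 probe sets that are not controls, for 47 of the 49 genes, and Kremen2 and Tcf7 had no such probe set. After the dimmest 25% of probe sets were left out, 93 probe sets of 44 genes were tested, and Lrp5, Dkk1 and Wif1 were on the array but too dim to be tested.

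RNA came from whole mouse uterus at day -1 of an artificially induced decidual response, in which hormone treatment and a stimulus to the uterine lumen make the endometrial stroma differentiate without an embryo. The 3 control samples carried floxed alleles of Ihh, the gene of the Hedgehog ligand Indian hedgehog (Ihhf/f). The 3 Ihh-ablated samples carried the same floxed alleles and PRcre, a Cre recombinase under control of the progesterone receptor gene (PRcre/+Ihhf/f, called Ihhd/d in the labels). Strain and age were not given in the sources used here. The Cre acts in cells that express the progesterone receptor. Since all ablated samples carry it and the labels name no Cre in the controls, Cre and Ihh loss cannot be told apart here. For both groups the source field names SmoM2, a different model, which goes against the titles. The groups follow the titles. Whether each sample is a separate mouse is not in the labels, and the p-values therefore reflect only how far these arrays spread, which may be a technical spread.

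WNT proteins are secreted lipid-modified signals. They bind Frizzled receptors with the co-receptors LRP5 and LRP6, which stabilises beta-catenin so that it acts with TCF/LEF factors on target genes, or they bind receptors such as ROR2 that act without beta-catenin. Secreted proteins of the SFRP, DKK and WIF families hold WNT signals back, and R-spondins strengthen them by removing the ubiquitin ligases ZNRF3 and RNF43 that clear Frizzled receptors from the cell surface. In the uterus, WNT genes take part in the forming of glands and, with Wnt4 as the best known example, in the decidual change of the stroma.

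The comparison asks which of these genes differed without Ihh. Gli1 and Ptch1, which report Hedgehog signalling, were lower in Ihh-ablated uteri, with log2 differences of -2.53 and -1.65 (limma adjusted p = 0.000492 and 0.00146), while Ihh itself differed by -0.43 (adjusted p = 0.164). Whether the Ihh probe set lies inside the deleted stretch is not in the labels. The median intensity of an array was 121.4 to 142.5, with control replicate 2 at the top. Striated muscle markers summed to 11980 in control replicate 3, to 5228 and 4876 in control replicates 1 and 2 and to 1888 to 2484 in the ablated arrays. All 6 of 6 genes lay below 0, with Acta1 past the test (-1.73, limma adjusted p = 0.00208). In control replicates 1 and 2 most of the sum was Acta1, at 4164 and 3559. Mylpf read 83.9 and 88.5 there, 2075.5 in control replicate 3 and 73.7 to 86.6 on the ablated arrays. Pancreas markers summed to 43402 in Ihh-ablated replicate 2, against 361.4 to 1520 on the other arrays. Adipocyte markers (8 of 10 tested, 0 called) summed to 2992 to 13632 in control and 10862 to 25220 in Ihh-ablated uteri, lowest in control replicate 1. Of these 8 genes, 7 lay above 0, with a median log2 difference of 1.20. At an unadjusted limma p under 0.05, 11 of their 14 tested probe sets were higher, where 9.87% of all were. The marker sums are of linear intensities, and in such whole-tissue samples fewer cells of a type and less RNA per cell cannot be told apart.

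Among the 93 tested probe sets of WNT genes, 5 rose, 0 fell and 88 did not pass at a limma adjusted p under 0.05. Of all probe sets tested, 2.14% passed, made up of 1.03% that were higher and 1.11% that were lower. The 5 belong to 5 genes of 5 different classes: the ligand gene Wnt4, the receptor gene Ror2, the inhibitor gene Dkk3, the R-spondin gene Rspo1 and the feedback target Axin2. Of the 44 tested genes, 5 thus had a called probe set, against 3.46% of all genes tested. Taking only the brightest probe set of each gene, Ror2, Rspo1 and Axin2 passed as higher and none as lower, 3 and 0 of 44. Of all genes 2.81% passed in this way, 1.28% higher and 1.53% lower. At an unadjusted p under 0.05, 16 WNT probe sets were higher and 14 lower, where 9.87% and 13.0% of all probe sets were. Groups did not overlap for 19 probe sets that were higher and 16 that were lower, against 13.1% and 17.9% of all (31.0% in either direction). The median log2 difference of the 44 genes was 0.08, beside -0.04 for all genes tested, with 25 above and 19 below 0.

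**Figure D1:**
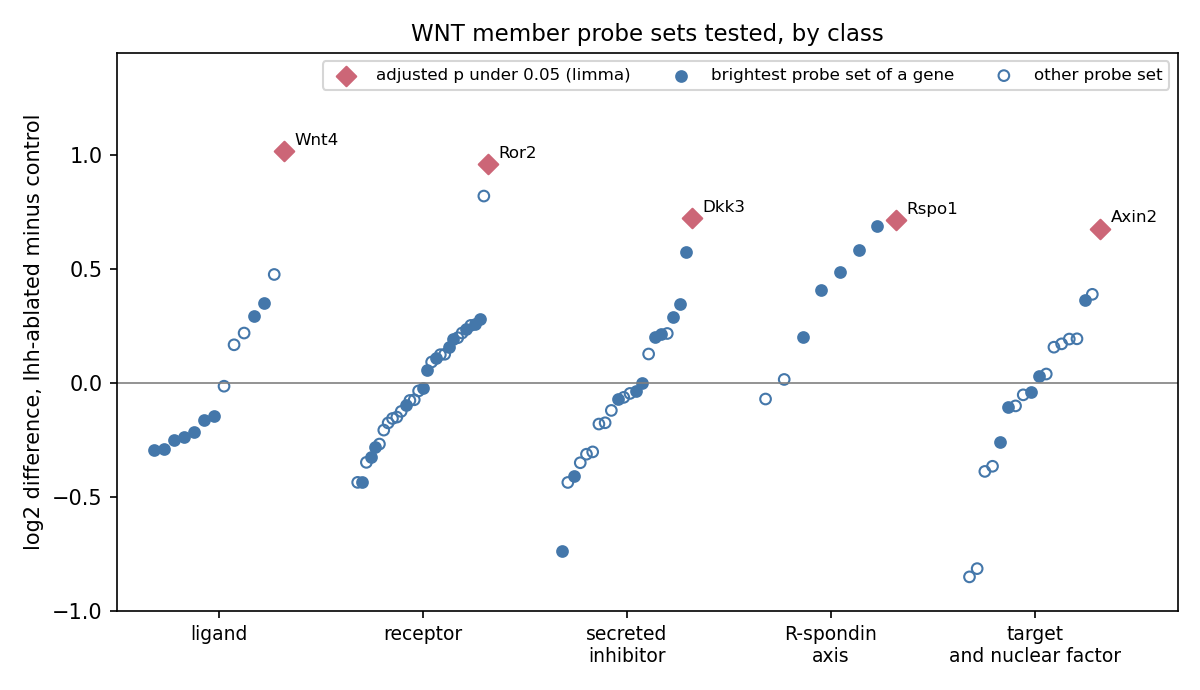
Log2 difference (Ihh-ablated minus control, vertical axis) of each of the 93 tested WNT probe sets, sorted within 5 classes, with filled circles for the brightest probe set of a gene, open circles for others and diamonds for those at a limma adjusted p under 0.05. Each class holds 1 diamond, all 5 above 0, and every brightest probe set of the R-spondin axis lies above 0.

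The 5 called probe sets separated the groups on every array. All Ihh-ablated arrays read higher than all control arrays for each of them, and the differences lay between 0.68 and 1.02 on the log2 scale. The same values gave the calls, so this separation is no further support. Of all tested probe sets 31.0% separated the groups in either direction. Each of the 5 calls was lost without at least 1 of the arrays, while each direction held without any of them. All 5 still passed without control replicate 3 and Ihh-ablated replicate 2, the arrays highest for striated muscle and for pancreas markers. Their differences were 1.17 for Wnt4 (limma adjusted p = 0.00706), 0.79 for Ror2 (0.0233), 0.75 for Dkk3 (0.0306), 0.78 for Rspo1 (0.0237) and 0.82 for Axin2 (0.0108). More probe sets passed in general once both arrays were left out, 5.86% of all, against 2.14% with every array. This fit did not even out the adipocyte markers. Control replicates 1 and 2 summed to 2992 and 7912 for them, while Ihh-ablated replicates 1 and 3 reached 10862 and 25220. These sums separated the groups, whereas over all 6 arrays they overlapped, with control replicate 3 at 13632. When the mean of the adipocyte markers entered the fit as a covariate, 0 of the 5 passed, and their differences were 0.52 to 1.05. That fit called 19 of 33777 probe sets in all, and the part of adipocyte RNA in the result was not tested beyond it.

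**Figure D2:**
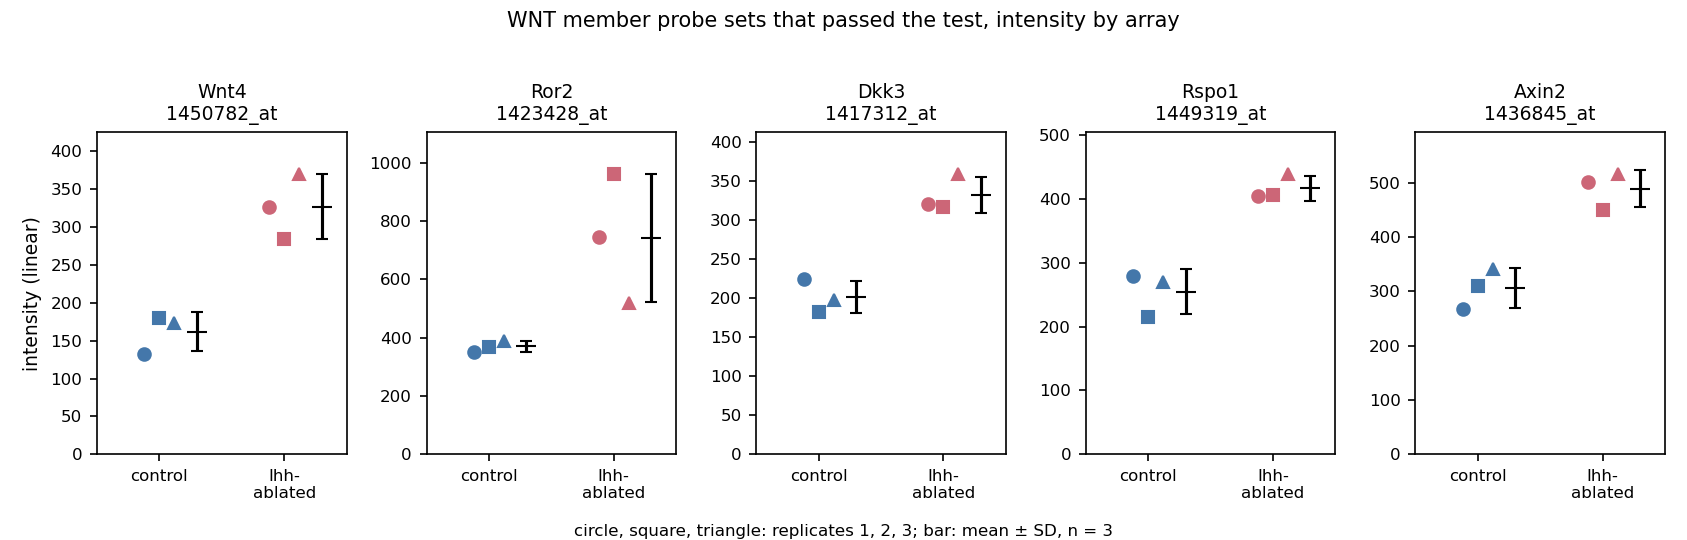
Linear intensity by array for the 5 WNT probe sets that passed the test, with replicates 1, 2 and 3 as circle, square and triangle and the mean ± SD (n = 3) beside each group. In each panel, chosen by the test on these same values, all Ihh-ablated arrays lie above all control arrays. Ror2 spreads from 520 to 960 among the ablated arrays.

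Ligand genes differed little apart from Wnt4. Wnt4 encodes a ligand that progesterone and BMP signalling induce in the stroma and that decidualization requires. Probe set 1450782_at of Wnt4 read 133, 180.0 and 173 in control replicates 1 to 3 and 327, 285 and 370 in Ihh-ablated replicates 1 to 3. Every ablated array lay well above the control arrays, and the level rose 2.03-fold, from 162 ± 25.6 to 327 ± 42.7 (mean ± SD, n = 3 each; log2 difference 1.02, SE 0.15, limma adjusted p = 0.0129). The call was lost without control replicate 1 (adjusted p = 0.0551), Ihh-ablated replicate 1 (0.0665) or Ihh-ablated replicate 3 (0.0642). The other Wnt4 probe set, 1441687_at, read 198, 261 and 206 on the control arrays, and 274, 239 and 299 on the ablated arrays. There control replicate 2 lay above Ihh-ablated replicate 2, and the difference of 0.29 (95% interval -0.02 to 0.61) did not pass (adjusted p = 0.246). The mean of both probe sets passed, at 0.66 (adjusted p = 0.0420).

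Wnt5a, a stromal ligand that often signals through ROR2, had 4 tested probe sets. The brightest, 1436791_at, read 772, 732 and 956 on the control arrays, and 1038, 1105 and 982 on the ablated arrays, groups that did not overlap, with a difference of 0.35 (SE 0.11, limma adjusted p = 0.121). It passed without control replicate 3 (0.47, adjusted p = 0.0154), a fit that called 10.6% of all probe sets, against 2.14% with every array. The other 3 gave -0.01, 0.17 and 0.22, and none passed. Wnt7a, a ligand of the luminal epithelium that patterns the uterus, disagreed between its probe sets. Its brightest, 1447647_at, differed by -0.25 (adjusted p = 0.455), with 390 in control replicate 2 and 220 to 238 on the 5 other arrays. Probe set 1423367_at read 99.6, 103 and 129 on the control arrays, and 152, 169 and 138 on the ablated arrays, a difference of 0.48 (adjusted p = 0.116) without overlap.

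Wnt11, which is made in uterine epithelium, read 485, 673 and 554 on the control arrays, and 477, 423 and 494 on the ablated arrays, a difference of -0.29 (limma adjusted p = 0.222). Control replicate 2 was its highest array, as it was for Wnt6, Wnt7b and Wnt16. Wnt16, a stromal ligand, differed by -0.29 (adjusted p = 0.242), Wnt7b by -0.24, Wnt6 by -0.21, Wnt2 by -0.16 and Wnt5b by -0.14, and none of these passed. By brightest probe set 2 of 9 ligand genes lay above 0 and 7 below, with a median of -0.21. The mean log2 level of the ligand class was 0.26 above its 6-array mean in control replicate 2 and between -0.09 and -0.01 on the other arrays. Without control replicate 2 the median was -0.08.

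Among receptor genes, Ror2 stood out. ROR2 is a receptor tyrosine kinase that binds WNT5A and signals without beta-catenin. Probe set 1423428_at read 351, 368 and 390 on the control arrays, and 746, 960 and 520 on the ablated arrays. The control arrays were close together, while the ablated arrays spread widely, with replicate 2 highest. Ror2 rose 1.95-fold, from 370 ± 19.1 to 742 ± 220 (mean ± SD, n = 3 each; log2 difference 0.96, SE 0.19, limma adjusted p = 0.0375). A dimmer Ror2 probe set, 1457128_at, read 160, 173 and 187 on the control arrays, and 268, 420 and 254 on the ablated arrays, and its difference of 0.82 fell just short (adjusted p = 0.0586). The call of the brighter one was lost when control replicate 1 (0.142) or 2 (0.108) was left out, and when Ihh-ablated replicate 1 (0.126) or 2 (0.0673) was. It was also lost under quantile normalization (0.0586), with dim probe sets kept in (0.0625) and with no trend in the variance (0.0782). Ihh-ablated replicate 2 is also the array highest for pancreas markers. Without it the Ror2 difference was 0.75.

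Ror1, the related receptor, gave 0.24 with probe set 1429313_at and -0.44 with 1451014_at (limma adjusted p = 0.228 and 0.182). Both separated the groups in opposite directions, and neither passed. Frizzled genes, which encode the seven-pass WNT receptors, gave 0 calls. Fzd2 was lower on every ablated array with all 3 probe sets, at -0.33, -0.35 and -0.21 (adjusted p = 0.0872, 0.107 and 0.234). Its brightest, 1418533_s_at, read 799, 764 and 705 on the control arrays, and 600, 627 and 581 on the ablated arrays. That probe set passed without control replicate 3 (-0.38, adjusted p = 0.0354), where 10.6% of all probe sets passed. Fzd1 differed by -0.43 (adjusted p = 0.199), with 1030, 639 and 924 on the control arrays, and 557, 761 and 583 on the ablated arrays, so that the groups overlapped.

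The remaining Frizzled genes lay between -0.28 (Fzd10) and 0.28 (Fzd3) by brightest probe set, with Fzd4, Fzd5, Fzd7 and Fzd8 between -0.02 and 0.16. Fzd6, a receptor of planar polarity, overlapped between the groups and was highest on replicate 3 of each, with 667, 699 and 1244 on the control arrays, and 839, 958 and 1240 on the ablated arrays. The co-receptor gene Lrp6 differed by 0.19 (95% interval -0.04 to 0.43, limma adjusted p = 0.287). Ryk, a WNT-binding kinase-like receptor, differed by -0.10 (95% interval -0.27 to 0.08, adjusted p = 0.473). Dimmer probe sets gave -0.12 for Lrp6, 0.22 and -0.17 for Ryk and, with groups that did not overlap, -0.27 for Fzd7. Of 13 tested receptor genes 8 lay above and 5 below 0, with a median of 0.11.

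Among secreted inhibitor genes only Dkk3 rose, with 1 of its probe sets, and none fell. DKK3 is a divergent member of the Dickkopf family. Probe set 1417312_at of Dkk3 read 224, 183 and 198 on the control arrays, and 320, 317 and 359 on the ablated arrays. Dkk3 rose 1.65-fold there, from 202 ± 20.9 to 332 ± 23.2 (mean ± SD, n = 3 each; log2 difference 0.72, SE 0.12, limma adjusted p = 0.0178). The brighter Dkk3 probe set, 1448669_at, read 290, 218 and 238 on the control arrays, and 360, 343 and 404 on the ablated arrays. Its groups did not overlap either, and its difference of 0.57 did not pass (adjusted p = 0.0600). The call of 1417312_at was lost without Ihh-ablated replicate 1 (0.0838), 2 (0.0560) or 3 (0.0956), and it held without each control array.

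Sfrp1, which binds WNT proteins outside the cell, gave different answers by probe set. The brightest, 1448395_at, read 289, 358 and 208 on the control arrays, and 193, 165 and 146 on the ablated arrays. Every ablated array was lower, and the difference was -0.74 (SE 0.20, limma adjusted p = 0.0887). It passed without control replicate 3 (-0.95, adjusted p = 0.00963), where 10.6% of all probe sets passed. The other tested Sfrp1 probe sets gave 0.22, -0.04 and -0.31. Apcdd1, a membrane inhibitor of WNT signalling that is itself a WNT target, was lower with each of its 5 tested probe sets, by -0.17 to -0.44, and none passed (adjusted p = 0.0826 to 0.388). Probe set 1418382_at read 749, 702 and 818 on the control arrays, and 511, 526 and 646 on the ablated arrays. Of the 5 Apcdd1 probe sets, 3 carry the suffix x, which marks probes that can match other transcripts.

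Frzb, Sfrp4 and Kremen1, which encode an SFRP-like WNT binder, an SFRP of the endometrial stroma and a receptor for Dickkopf proteins, differed by 0.35, 0.29 and 0.22 (limma adjusted p = 0.209, 0.258 and 0.248) by brightest probe set. Dimmer ones gave -0.06 for Frzb and -0.12 and 0.13 for Kremen1. Sfrp2 differed by 0.0021 (95% interval -0.30 to 0.30), and Notum, a secreted enzyme that removes the lipid from WNT proteins, by -0.03 (95% interval -0.34 to 0.27). Dkk2 and Sfrp5 gave 0.20 and -0.07, with groups that overlapped. Over the class, 6 of 10 tested genes lay above 0 and 4 below, with a median of 0.10.

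The 6 listed R-spondin axis genes all lay above 0 by brightest probe set, with a median difference of 0.54 beside -0.04 for all genes tested. Groups did not overlap for 5 of the 6, for Lgr5 only barely, as for 32.3% of all genes. Only Rspo1 among them passed the test, and the list was not tested as a set. The list leaves out 3 related genes, named here after their values were seen. The R-spondin genes Rspo2 and Rspo4 gave -0.27 and -0.37 by brightest probe set (limma adjusted p = 0.322 and 0.250), with every ablated array below the control arrays for Rspo4. A second Rspo2 probe set gave 0.03. The receptor gene Lgr6 gave 0.59 and 0.27 (adjusted p = 0.134 and 0.339), and none of the 3 genes passed. Rspo1 encodes an R-spondin, a secreted ligand of LGR4, LGR5 and LGR6. Rspo1 read 280, 215 and 270 on the control arrays, and 405, 406 and 438 on the ablated arrays. It rose 1.64-fold, from 255 ± 35.1 to 416 ± 19.2 (mean ± SD, n = 3 each; log2 difference 0.72, SE 0.12, limma adjusted p = 0.0227). The call was lost without control replicate 1 (0.0602) or Ihh-ablated replicate 1 (0.0932), 2 (0.0652) or 3 (0.106).

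Rspo3, which encodes another R-spondin, read 1154, 1034 and 1147 on the control arrays, and 1758, 1277 and 1679 on the ablated arrays. Ihh-ablated replicate 2 lay nearest to control, and the difference was 0.49 (SE 0.12, limma adjusted p = 0.0728). It passed without that array (0.63, adjusted p = 0.0167) and without control replicate 3 (0.51, adjusted p = 0.0452). Of all probe sets 1.05% and 10.6% passed in these 2 fits. A dim Rspo3 probe set, 1443187_at, gave 0.02. Rnf43, one of the ubiquitin ligases that remove Frizzled and a WNT target, read 93.4, 68.4 and 114 on the control arrays, and 144, 148 and 143 on the ablated arrays. The ablated arrays were nearly equal, and the difference was 0.69 (SE 0.18, adjusted p = 0.0845). It too passed without control replicate 3 (0.86, adjusted p = 0.0144), where 10.6% of all probe sets passed. Znrf3, the related ligase, read 173, 110 and 164 on the control arrays, and 217, 206 and 235 on the ablated arrays, a difference of 0.59 (SE 0.18, adjusted p = 0.114). Its dimmer probe set, 1437646_at, gave -0.07.

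Lgr5 and Lgr4 encode R-spondin receptors, and Lgr5 marks stem cells in several epithelia. Lgr5 read 80.2, 111 and 119.02 on the control arrays, and 143, 119.37 and 145 on the ablated arrays, so that the groups only just separated. Its difference was 0.41 (limma adjusted p = 0.196). Lgr4 differed by 0.20 (95% interval -0.09 to 0.50, adjusted p = 0.357), with groups that overlapped. The mean log2 level of the 6 genes lay 0.07 to 0.45 below its 6-array mean in control and 0.13 to 0.32 above it in Ihh-ablated uteri. When all tested probe sets of a gene were averaged, the class median was 0.33. Uterine gland markers (6 of 6 tested, 3 higher) summed to 2870 to 3793 in control and 4896 to 6430 in Ihh-ablated uteri. Among the ablated arrays, replicate 2 was highest for these markers and lowest for the R-spondin axis. Gpx3 was the largest part of the sums, with group means of 1672.4 and 3174.5. Prss29 read 474 in Ihh-ablated replicate 2 and 217 and 219.5 in replicates 1 and 3. By brightest probe set 5 of the 6 markers lay above 0, and Lif lay below at -0.38 (limma adjusted p = 0.206). Epithelium markers (9 of 10 tested, 0 called) summed to 11810 to 17559 in control and 16771 to 18359 in Ihh-ablated uteri. Stroma markers (10 of 10 tested, 1 higher and 2 lower) summed to 40615 to 44702 and 39003 to 39928. For scale, 1.28% of all genes tested were called higher and 1.53% lower. The part of the gland, epithelium and stroma cells in the result was not tested.

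**Figure D3:**
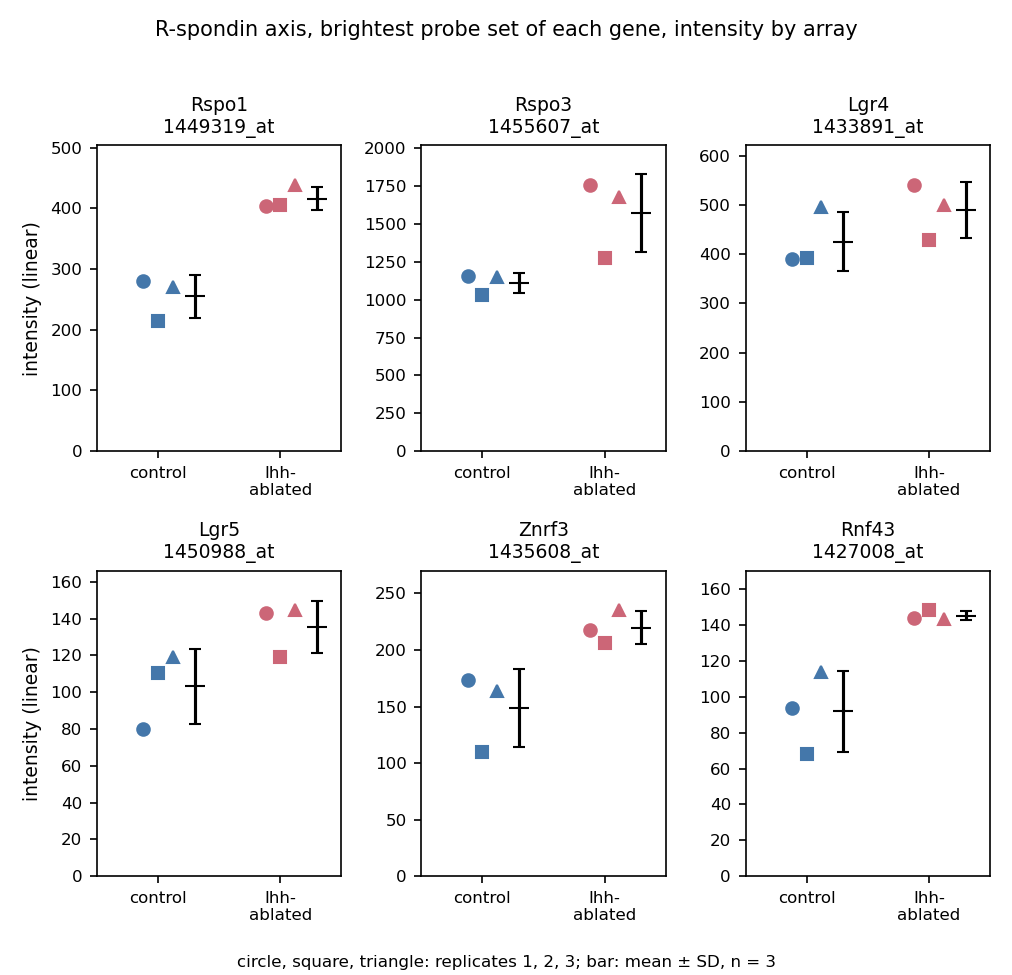
Linear intensity by array for the brightest probe set of the 6 R-spondin axis genes, with replicates 1, 2 and 3 as circle, square and triangle and the mean ± SD (n = 3) beside each group. The group mean is higher in Ihh-ablated uteri in all 6 panels, and the arrays overlap for Lgr4, where control replicate 3 read 496. For Lgr5 the groups nearly touch, at 119.02 in control replicate 3 and 119.37 in Ihh-ablated replicate 2.

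Axin2, a scaffold of the beta-catenin destruction complex whose transcription is a widely used readout of WNT signalling, rose with its brightest probe set. Probe set 1436845_at read 268, 310 and 342 on the control arrays, and 501, 451 and 516 on the ablated arrays. Axin2 rose 1.60-fold, from 307 ± 36.9 to 489 ± 34.2 (mean ± SD, n = 3 each; log2 difference 0.68, SE 0.12, limma adjusted p = 0.0228). The call was lost when control replicate 1 (0.0815) or 2 (0.0600) was left out, and when Ihh-ablated replicate 1 (0.106) or 3 (0.106) was. The second Axin2 probe set, 1421341_at, read 120, 161 and 114 on the control arrays, and 131, 126 and 121 on the ablated arrays, with a difference of -0.05 (95% interval -0.39 to 0.29). The mean of both did not pass (0.31, adjusted p = 0.127).

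Nkd2 and Nkd1 encode Naked cuticle proteins, feedback inhibitors that bind Dishevelled. All 4 Nkd2 probe sets lay above 0, at 0.16 to 0.39, and none passed. Of these, 1434275_at read 236, 250 and 298 on the control arrays, and 321, 323 and 383 on the ablated arrays (limma adjusted p = 0.132). Nkd1 gave -0.26, 0.04, 0.19 and -0.10 over 4 probe sets. Lef1, a nuclear partner of beta-catenin and a WNT target, differed by -0.10 (95% interval -0.40 to 0.19, adjusted p = 0.632) with its brightest probe set. The dimmer one, 1421299_a_at, gave -0.39 (95% interval -0.75 to -0.02, adjusted p = 0.199), with every ablated array below every control array.

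Tcf7l2, a TCF factor of many epithelia, had probe sets that disagreed, and its 4 probe sets are all given here after their values were seen. Probe set 1426639_a_at read 263, 299 and 170 on the control arrays, and 136, 129 and 129 on the ablated arrays, and 1425229_a_at read 277, 301 and 172 against 153, 125 and 137. Both separated the groups, control replicate 3 being the control array nearest to the ablated ones. Their differences of -0.85 and -0.81 did not pass (limma adjusted p = 0.0597 and 0.0778). Both passed without control replicate 3 (-1.09 and -1.06, adjusted p = 0.00291 and 0.00398), where 10.6% of all probe sets passed. The brightest Tcf7l2 probe set, 1429427_s_at, gave -0.04 (95% interval -0.58 to 0.50), and 1429428_at gave 0.17 (95% interval -0.22 to 0.57). Neither of these has a settled sign: the first turned to 0.16 without control replicate 3 and the second to -0.02 without control replicate 2. Which transcripts of the gene each probe set reads is not given in the sources used here. Tcf7l1, a TCF factor that often represses, gave 0.03 and -0.36 with its 2 probe sets (adjusted p = 0.912 and 0.135).

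**Figure D4:**
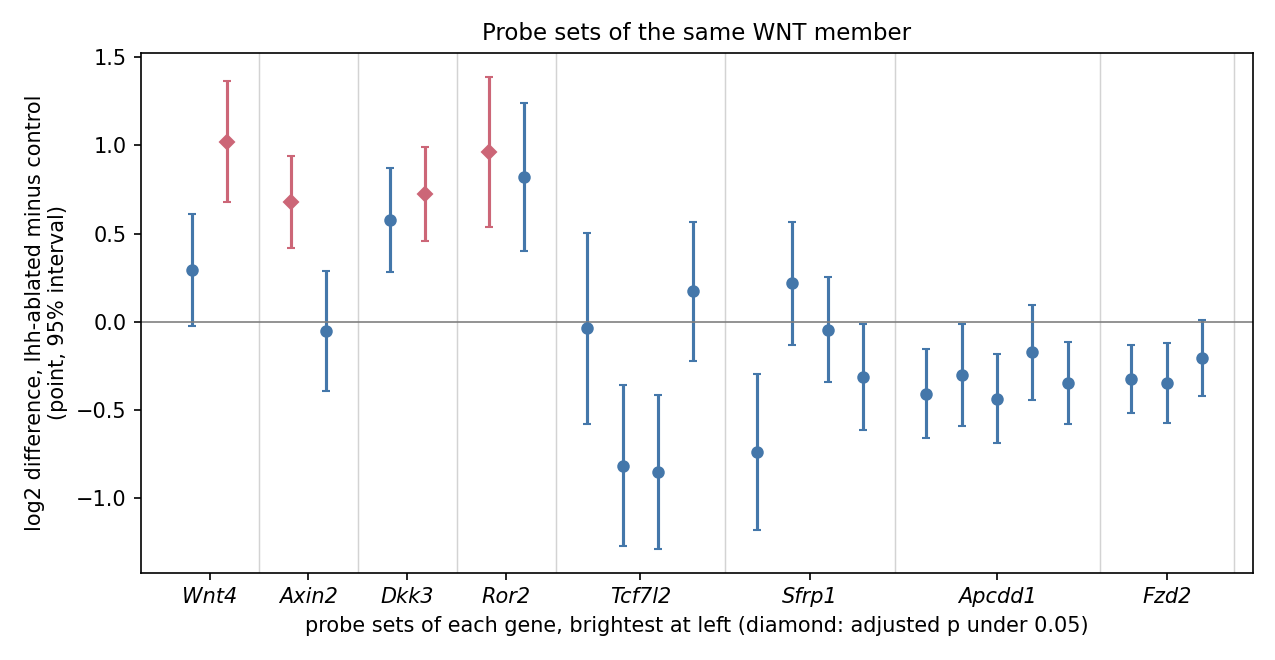
Log2 difference (Ihh-ablated minus control) with its 95% interval for every tested probe set of 8 WNT genes, brightest at left, diamonds marking a limma adjusted p under 0.05. Apcdd1 and Fzd2 keep 1 sign throughout, whereas the probe sets of Tcf7l2 range from -0.85 to 0.17 and those of Axin2 from -0.05 to 0.68.

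Across the WNT genes, 29 had over 1 tested probe set. For 13 of them all probe sets had the same sign of difference, and for 16 the signs differed. A gene's value thus often depended on the probe set that stood for it.

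Other genes of the pathway were taken from lists that hold none of the 49 genes. By brightest probe set, 1.28% of all genes tested passed as higher and 1.53% as lower. Among 38 tested genes of WNT secretion and the beta-catenin route, 0 rose, 0 fell and 38 did not pass, with a median difference of 0.08. Over their 92 probe sets, 12 were higher and 7 lower at an unadjusted p under 0.05, where 9.87% and 13.0% of all probe sets were. Ctnnb1, which encodes beta-catenin, differed by 0.05 (SE 0.05, limma adjusted p = 0.539). Among 15 genes of planar polarity and non-canonical signalling 0 passed, with a median of 0.04. Over their 27 tested probe sets, 2 were higher and 3 lower at an unadjusted p under 0.05, beside the same shares of all. A further list holds WNT, Frizzled, Dickkopf and R-spondin family genes outside the 49, together with related genes such as Ndp. Of its 18 tested genes, 1 fell and 17 did not pass, with a median of -0.27, 3 above and 15 below 0. The 1 that fell is Ndp, whose product norrin is a Frizzled-4 ligand unrelated to WNT proteins. It read 201, 110 and 129 on the control arrays, and 72.4, 54.4 and 67.6 on the ablated arrays (log2 difference -1.14, SE 0.22, adjusted p = 0.0338). The mean level of this list was 0.43 above its 6-array mean in control replicate 2, and without that array its median was -0.13.

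Of 16 other tested genes often named as WNT targets, 1 rose, 2 fell and 13 did not pass, with a median of -0.09. Over all genes tested, 1.28% passed as higher and 1.53% as lower by brightest probe set. The gland transcription factor gene Sox9 rose by 0.83 (limma adjusted p = 0.0168) with its brightest probe set and by 1.66 (adjusted p = 0.0338) with another, while the remaining one gave -0.11. Sox9 is also 1 of the 6 gland markers. Cd44, a hyaluronan receptor, fell by 0.72 and 0.75 with its brighter probe sets (adjusted p = 0.00285 and 0.00623), and a dimmer one gave -0.17. Ccnd1, which encodes cyclin D1, fell by 0.40 with its brightest probe set and by 0.55 and 1.02 with the other 2, all past the test. Ccnd1 read 1538, 1450 and 1476 on the control arrays, and 1156, 1212 and 1031 on the ablated arrays with its brightest probe set. Axin2 and Ccnd1 thus moved in opposite directions. Mitotic cell cycle markers, which include no WNT gene, summed to 7365 to 8912 in control and 3224 to 3747 in Ihh-ablated uteri, with 17 of 19 lower. Myc differed by -0.17 (adjusted p = 0.276) and Sp5, a direct WNT target, by 0.10 (adjusted p = 0.665).

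Promoter sequences were searched for the TCF/LEF core, since 1 of the risen genes is a known target of these factors. RefSeq sequences of build GRCm38.p6 matched 32 of the 49 genes with 41 start sites, and the 250 bases upstream of each start site were read. The letters searched on both strands were CTTTGAA or CTTTGAT or CTTTGTA or CTTTGTT. Of the 41 windows 6 held a match (14.6%), against 14.8% of all 32851 windows of the table. The GLI core GGGTGGT was found in 1 of the 41 windows (2.44%, an upstream window of Lef1), against 3.92% of all. Of the 5 risen genes Wnt4, Ror2, Rspo1 and Axin2 had a window, and 0 of these 4 windows held either core. The windows of Axin2 (chr11:108920099-108920348, plus strand) and Rspo1 (chr4:124986180-124986429, plus strand) are shown 5′ to 3′ as the upstream sequence of the target gene and the R-spondin gene that rose.
Axin2: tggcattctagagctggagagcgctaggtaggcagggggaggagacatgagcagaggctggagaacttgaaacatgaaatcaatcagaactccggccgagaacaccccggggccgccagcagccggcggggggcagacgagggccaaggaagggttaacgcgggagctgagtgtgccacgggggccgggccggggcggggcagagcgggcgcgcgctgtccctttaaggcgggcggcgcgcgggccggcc
Rspo1: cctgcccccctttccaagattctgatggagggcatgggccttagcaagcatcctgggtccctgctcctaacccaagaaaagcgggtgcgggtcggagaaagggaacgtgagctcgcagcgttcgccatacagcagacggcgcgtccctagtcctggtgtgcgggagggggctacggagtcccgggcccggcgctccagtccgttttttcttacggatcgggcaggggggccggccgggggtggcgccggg
The stretches around the matches in the other 6 genes are shown with the core in capitals, as on the strand of the gene, so that the genes that carry these letters can be set beside their values. They lie at chr7:98835041-98835087, plus strand (Wnt11), chr6:119449431-119449477, minus strand (Wnt5b), chr1:59481997-59482043, plus strand (Fzd7), chr19:30549568-30549633, minus strand (Dkk1), chr3:131156127-131156173, plus strand (Lef1) and chr19:55895287-55895320, plus strand (Tcf7l2).
Wnt11: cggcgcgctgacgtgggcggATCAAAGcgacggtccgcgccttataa
Wnt5b: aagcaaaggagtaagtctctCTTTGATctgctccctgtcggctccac
Fzd7: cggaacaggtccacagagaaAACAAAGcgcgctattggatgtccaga
Dkk1: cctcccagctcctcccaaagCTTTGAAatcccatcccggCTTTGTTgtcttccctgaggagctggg
Lef1: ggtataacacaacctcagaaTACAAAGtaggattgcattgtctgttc
Tcf7l2: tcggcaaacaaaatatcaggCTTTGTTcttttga
None of these 6 genes passed the test with any probe set. Their brightest probe sets differed by -0.29 (Wnt11), -0.14 (Wnt5b), 0.16 (Fzd7), -0.10 (Lef1) and -0.04 (Tcf7l2), and Dkk1 was too dim to be tested. Letters in a window are a description and do not show that a factor binds there, and a window without them says nothing about sites elsewhere.

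The plot of the 5 risen probe sets under each setting shows how far their values moved. Over 19 alternatives to the fit, Wnt4 and Dkk3 passed in 15 each, Rspo1 in 14, Axin2 in 13 and Ror2 in 11. Changes of floor or filter could not move the differences of these probe sets, only their adjusted p. In the 6 fits that left out 1 array, Wnt4 and Dkk3 passed in 3 each, and Rspo1, Axin2 and Ror2 in 2 each. All 5 kept their direction in all 19 alternatives.

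**Figure D5:**
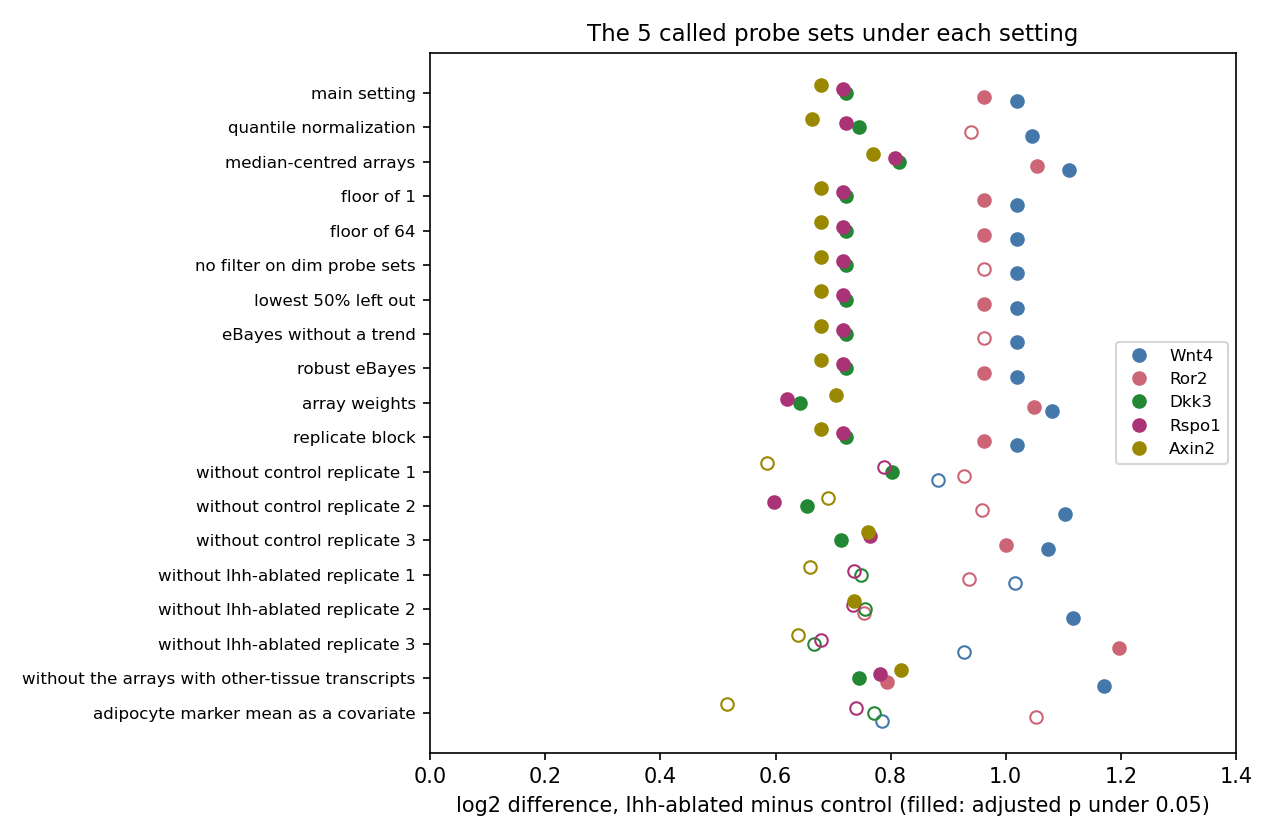
Log2 difference (Ihh-ablated minus control, horizontal axis) of the 5 called WNT probe sets under the main setting and the alternatives that keep probe sets separate, filled where the limma adjusted p is under 0.05. All points lie above 0, from 0.52 to 1.20, and open points gather at the fits that leave out an array and at the adipocyte covariate.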

How the data were processed

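Biotinylated cRNA of uterine total RNA was hybridised to Affymetrix arrays, 1 per sample, per the labels' protocols. The authors deposited linear values, 1 intensity for each probe set. How they corrected background and normalized, and with which software, was not given in the sources used here. Dim values have no known background, since detection calls were not part of the tests. Of 45101 probe sets 64 controls were left out, and 34945 had 1 gene symbol. Deposited intensities under 16 were set to 16 before log2, and the lowest 25% by mean log2 (under 6.16) were dropped. The remaining 33777 entered limma 3.58.1 (R 4.3.3; lmFit, then eBayes with a trend on intensity; residual degrees of freedom 4, prior 5.25), with Benjamini-Hochberg adjustment over all of them. Group means and SDs are linear, whereas folds, SEs and 95% intervals are from the log2 fit. A gene stood by its brightest probe set.

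The genes and lists were chosen with earlier results of these data known. The rule gives full values for genes with a called probe set and for up to 4 genes of lowest p per class. Alternatives changed the normalization, floor, filter, variance model, array weights, replicate block, arrays, covariate, probe set and threshold. With 3 arrays a group, precision is limited by their number. Plots were made in matplotlib 3.10.9 (Python 3.11.15).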

Additional observations from a re-analysis of the deposited data

How the results depend on the processing

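All 5 called WNT probe sets kept their direction in 19 alternatives, and calls moved. Leaving out 1 array at a time gave 0 to 7 genes higher and 0 to 3 lower by brightest probe set. It gave 0 to 12 probe sets higher and 0 to 5 lower, the highest counts without control replicate 3. Of all probe sets, 10.6% were called without that array and 0.438% to 1.05% without any other array, against 2.14% with every array. Without control replicate 3 and Ihh-ablated replicate 2 together, 6 genes were higher and 2 lower, and 9 probe sets higher and 3 lower. These are the arrays highest for striated muscle and for pancreas markers, and that fit called 5.86% of all probe sets. With the adipocyte covariate 0 genes and 0 probe sets were higher, and 0.0563% of all probe sets were called. At an adjusted p under 0.10, 6 genes were higher and 3 lower, and 9 probe sets higher and 6 lower, while under 0.01 there were 0 higher of either. These thresholds called 5.48% and 0.417% of all probe sets. Robust eBayes gave 1 probe set lower, and array weights 1 gene and 5 probe sets lower, where 2.69% and 4.18% of all probe sets were called. The titles number replicates 1 to 3 in both groups. Deviations from the group means of same-numbered samples correlated at -0.15, -0.04 and 0.25, so the numbers were not taken as pairs. The replicate block gave 5 genes higher and 2 lower, and 8 probe sets higher and 5 lower, where 4.62% of all probe sets were called.

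With median-centred arrays the median difference was 0.20 for receptors, 0.088 for targets and nuclear factors, 0.17 for all WNT genes, 0.18 for the beta-catenin route, 0.13 for planar polarity and 0.0023 for other targets. It was 0.11 for all WNT genes with a floor of 64 and 0.057 without the filter. With the lowest 50% left out it was 0.096 for planar polarity and -0.049 for other targets, and with array weights -0.021 for other targets. Without control replicate 3 and Ihh-ablated replicate 2 it was 0.13 for all WNT genes, 0.16 for the beta-catenin route and -0.016 for other targets. The adipocyte covariate gave 0.017 for receptors, 0.053 for all WNT genes and 0.038 for the beta-catenin route. The mean of a gene's probe sets gave -0.016 for receptors, 0.33 for the R-spondin axis, -0.099 for targets and nuclear factors, 0.019 for all WNT genes, 0.031 for the beta-catenin route and -0.010 for planar polarity, and turned Ror1 to -0.098. Leaving out 1 array gave -0.30 to -0.083 for ligands, 0.078 to 0.13 for all WNT genes, 0.019 to 0.083 for planar polarity and -0.094 to -0.0032 for other targets. Of 585 comparisons of 31 named probe sets with an alternative, 514 kept direction and side of the threshold, 27 lost a call, 34 gained one and 10 changed sign. Of the sign changes 9 were in Tcf7l2. Probe set 1429427_s_at was 0.033 under quantile normalization, 0.053 with median-centred arrays and 0.13 without control replicate 3 and Ihh-ablated replicate 2. It was 0.088 with the adipocyte covariate and -0.34 to 0.16 leaving out 1 array. Probe set 1429428_at was -0.38 as the gene's mean and -0.024 to 0.32 leaving out 1 array. With the lowest 50% left out, some dim named probe sets had no value. The causes were not tested.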

Other observations

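Several WNT probe sets below the limit for testing separated the groups, and their values carry no test. Of all tested probe sets 31.0% separated the groups. Wif1, which encodes a secreted WNT inhibitor, read 4.75 to 12.4 on the control arrays and 20.1 to 31.3 on the ablated arrays, in the dimmest 0.97% of probe sets. Probe set 1420891_at of Wnt7b, an epithelial ligand, read 46.6, 55.6 and 54.9 on the control arrays, and 86.4, 83.0 and 73.9 on the ablated arrays, whereas the brighter Wnt7b probe set differed by -0.24. Probe set 1440182_at of Fzd10 read 43.3, 42.8 and 38.1 on the control arrays, and 33.6, 35.4 and 28.5 on the ablated arrays, the same direction as its brighter probe set. Probe set 1460187_at of Sfrp1 read 66.4, 44.2 and 52.0 on the control arrays, and 65.5, 78.2 and 143 on the ablated arrays, where the groups overlapped and the brightest Sfrp1 probe set pointed the other way. No detection calls were used, so none of these levels is shown to lie above background.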
